A study of Mus musculus with 10 samples.

Results

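The Ahnak mRNA was examined in m6A-RIP sequencing of mouse liver, and it was chosen by its number of N6-methyladenosine (m6A) peaks, the largest of any gene when the deposited peak lists were added up. All peaks that the lists gave to Ahnak were taken, which made 66 peaks of 32804 in 4 distinct lists, 16 of 10161 at day 1, 20 of 9070 at 1 week, 19 of 8765 at 2 weeks and 11 of 4808 at 8 weeks. These counts are the values by which the gene was selected and are given as a description. The livers came from wild-type (WT) C57BL/6J mice that had received no treatment and were killed at 1 of 5 ages, namely at day 1 after birth or at an age of 1, 2, 4 or 8 weeks. Each age had 1 input library of fragmented RNA and 1 IP library of the fragments that an anti-m6A antibody pulled down, 10 libraries in all, and 1 list of peaks was given for each age. The 4-week table repeated the coordinates and values of the 2-week table in all of its 8765 lines and differed in 12 gene names, so it was counted once, as the 2-week list, and the 4-week age was not analysed here. With 1 list per age no difference between ages has a replicate check, and no test was made.

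m6A is a methyl group that the Mettl3 and Mettl14 methyltransferase writes on adenosines of mRNA, most often within the consensus GGAC, and it is read by proteins that change the stability, splicing and translation of the message. In most mRNAs it gathers around the stop codon and in long internal exons. Ahnak encodes a giant scaffold protein found at the plasma membrane and in the cytoplasm, which binds S100a10 with annexin A2, actin and the beta subunit of voltage-gated calcium channels, and whose long middle part is built from many copies of 1 repeated unit, nearly all of it encoded by a single exon.

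In the mm10 genome Ahnak (ENSMUSG00000069833) lies on the + strand of chromosome 19. Of the 5 exons of its longest transcript (ENSMUST00000092956, 18100 bases), the last runs from chr19:9001699-9019196 and holds 17498 bases. Its coding part, chr19:9001699-9018321, is 16623 bases long and makes up 98% of the coding sequence and 91.8% of the transcript. All 66 peaks lay in this coding part, and the lists gave every one of them the class CDS. Positions below are counted from 1 at the first base of this coding part.

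The peaks of all lists were joined wherever they shared at least 1 base, which gave 17 sites, numbered from the start of the exon. The sequences shown here are those on which the account turns. They are of the reference genome GRCm38 in RefSeq, read 5′ to 3′ on the + strand, which is the strand of the mRNA, and capitals mark the letters GGAC, searched on this strand alone. The first is the stretch of site 3 that lay in a peak of every list, at chr19:9002894-9003134, the place with the smallest p-value of the gene in every list. It holds 2 GGAC words in 241 bases.

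site 3, bases in all lists: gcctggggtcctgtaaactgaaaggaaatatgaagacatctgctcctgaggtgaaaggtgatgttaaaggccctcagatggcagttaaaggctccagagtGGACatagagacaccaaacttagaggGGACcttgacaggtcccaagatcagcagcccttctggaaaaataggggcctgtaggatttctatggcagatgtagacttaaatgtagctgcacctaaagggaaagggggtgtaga

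The second is the first shared stretch of site 10, at chr19:9010233-9010473. It was in a peak of every list, and none of its 241 bases belongs to a GGAC word. Of all 241-base windows of the exon, 87.8% hold at least 1. The stretch ends at position 8775, and the next GGAC word begins at 8782, inside the peaks of day 1, 1 week and 2 weeks. The shared stretch of site 8 and the second of site 10 also hold no GGAC. The stretch printed here holds 4 words of the wider DRACH consensus (A, G or T, then A or G, then A and C, then A, C or T).

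site 10, bases in all lists: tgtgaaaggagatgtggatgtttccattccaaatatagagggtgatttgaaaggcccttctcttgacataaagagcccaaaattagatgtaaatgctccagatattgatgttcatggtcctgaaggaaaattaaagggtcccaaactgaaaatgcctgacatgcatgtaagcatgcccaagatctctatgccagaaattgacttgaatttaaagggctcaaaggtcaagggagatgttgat

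The next pair share a sequence and differ in how often they had a peak. The stretch of site 13 that was in a peak of every list, at chr19:9013319-9013468, holds 3 GGAC words in 150 bases, and site 9, a peak of the day 1 list alone at chr19:9009634-9009814, holds 2 in 181 bases. GGAC occurs in 71.9% of all 150-base windows and in 79.5% of all 181-base windows of the exon.

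site 13, bases in all lists: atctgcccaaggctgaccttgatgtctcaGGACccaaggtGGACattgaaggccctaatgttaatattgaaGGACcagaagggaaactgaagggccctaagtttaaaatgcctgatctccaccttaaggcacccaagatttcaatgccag

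site 9, day 1 only: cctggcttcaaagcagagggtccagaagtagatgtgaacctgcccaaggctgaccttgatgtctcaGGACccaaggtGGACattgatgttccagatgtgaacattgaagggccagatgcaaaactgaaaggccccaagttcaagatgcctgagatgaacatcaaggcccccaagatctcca

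Both contain the same run of 47 bases, the longest that they share. It is printed on its own because it occurs 6 times in the exon, letter for letter.

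47-base run: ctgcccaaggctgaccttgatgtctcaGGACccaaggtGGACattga

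The last pair are from the ends of the exon. Site 1, a peak of the 2-week list alone at chr19:9001726-9001996, is the most 5′ peak of the gene, and the stretch of site 17 at chr19:9017991-9018111 is the most 3′ stretch that was in a peak of every list.

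site 1, 2 weeks only: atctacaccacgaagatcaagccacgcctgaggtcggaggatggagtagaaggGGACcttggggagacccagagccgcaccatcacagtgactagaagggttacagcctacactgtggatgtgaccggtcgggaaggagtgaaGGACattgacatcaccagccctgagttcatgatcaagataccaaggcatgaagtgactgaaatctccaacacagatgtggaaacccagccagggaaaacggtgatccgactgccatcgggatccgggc

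site 17, bases in all lists: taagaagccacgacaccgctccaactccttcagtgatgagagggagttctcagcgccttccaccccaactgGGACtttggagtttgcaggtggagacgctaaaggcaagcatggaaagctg

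The number of peaks was highest at 1 week, while the bases inside peaks fell from list to list. Peaks held 11400 bases at day 1, 8348 at 1 week, 7090 at 2 weeks and 1988 at 8 weeks, that is 68.6%, 50.2%, 42.7% and 12% of the coding exon. The peaks became narrower along the same order. Their median width was 615 bases at day 1, 406 at 1 week, 271 at 2 weeks and 181 at 8 weeks, and over all peaks of the 4 lists it was 271, 241, 241 and 181 bases. The day 1 peaks of Ahnak were therefore wide for their list, and the 8-week peaks had the median width of theirs. At day 1 9 of the 16 peaks were at least 600 bases wide and the widest had 1648, while at 1 week 5 of 20, at 2 weeks 2 of 19 and at 8 weeks none of 11 reached 600. The gaps between neighbouring peaks widened, with medians of 209, 329, 493 and 1200 bases.

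**Figure D1:**
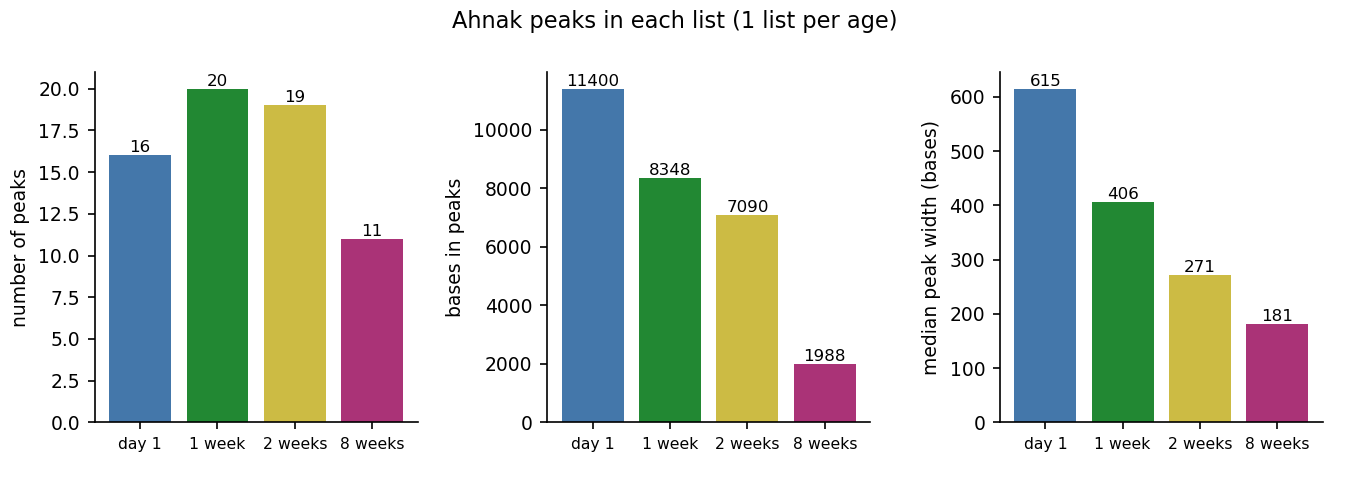
Bars give the number of Ahnak peaks, the bases of the coding exon inside peaks and the median peak width in bases in each of the 4 lists, with 1 list per age and so no error bars. The number of peaks was highest at 1 week (20), while the bases in peaks fell from 11400 at day 1 to 1988 at 8 weeks and the median width from 615 to 181 bases.

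The enrichment of Ahnak peaks also moved toward that of the other peaks. Fold enrichment is the authors' ratio of IP over input in a peak. At day 1 the Ahnak peaks ranged from 4.38 to 262 with a median of 86.2, against a median of 18.9 over all peaks of that list. At 1 week they ranged from 4.07 to 190 with a median of 42.1, against 20.4. The 2-week range was 6.73 to 400 and the median 19.3, against 17.6, and at 8 weeks the range was 9.17 to 79 and the median 21.2, against 18.3. So the median fold of Ahnak was several times that of the list at day 1 and close to it at 2 and 8 weeks. By p-value the 8-week peaks were the weakest, which by fold they were not. The median −log10 p of the Ahnak peaks was 69.9, 21.9, 13.3 and 4.84, beside 9.91, 9.1, 7.75 and 9.66 over all peaks, so that the Ahnak peaks had larger p-values than the median peak at 8 weeks alone. The last peak of the 8-week list, in site 17, was the single Ahnak peak with a false discovery rate (FDR) above 0.05, at 0.752, with a fold of 9.87.

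The lists hold no read counts and no level of the Ahnak mRNA. In whole liver, a lower share of methylated copies, fewer cells that make the mRNA and less of the mRNA per cell cannot be told apart, and the part of read depth in the narrowing was not tested. In every list some Ahnak peaks had exactly the same fold and p-value as peaks of other genes or of Ahnak itself, 5 of 16 at day 1, 5 of 20 at 1 week, 10 of 19 at 2 weeks and 8 of 11 at 8 weeks. The 8-week peaks of sites 4 and 16, for example, both had a fold of 14.1 and a p-value of 0.00089, a pair of values that 112 peaks of the list carried. Such peaks were the smallest share of the Ahnak peaks at 1 week and the largest at 8 weeks. Their share over all peaks of each list was not counted.

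**Figure D2:**
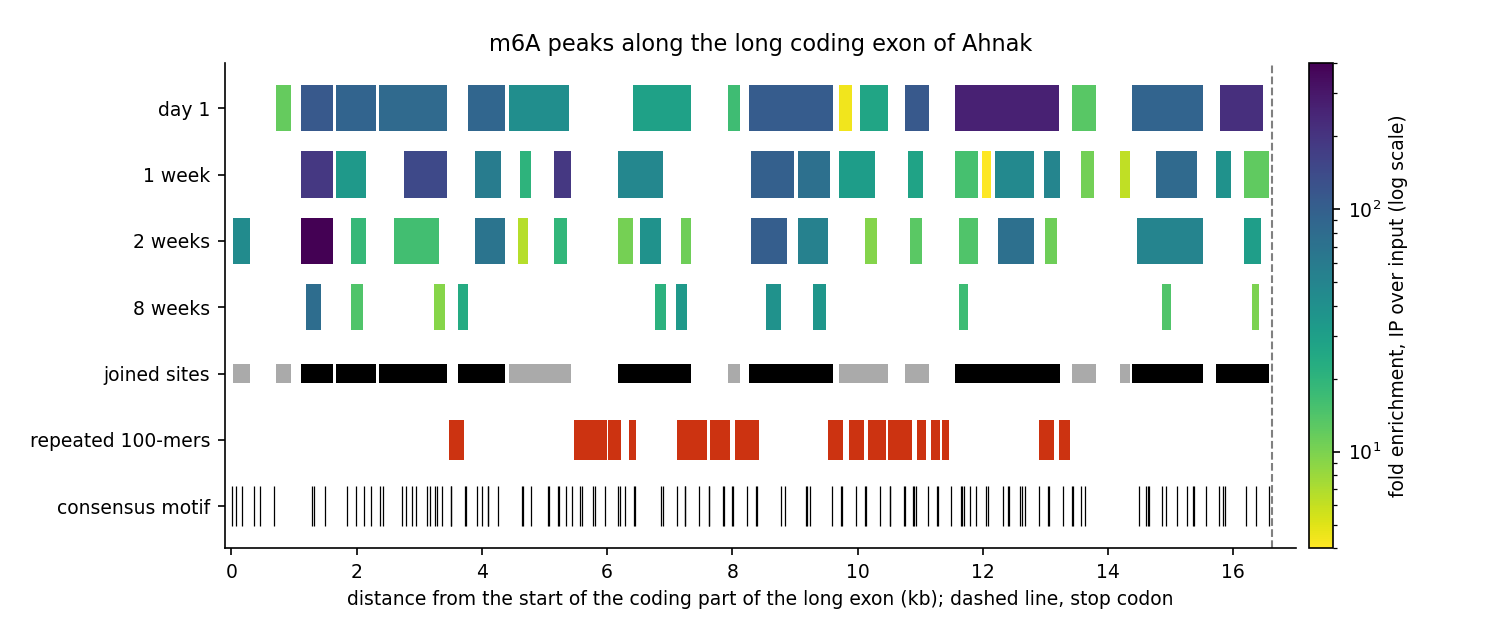
Map of the coding part of the last Ahnak exon, in kb from its first base, with the peaks of each list as boxes coloured by fold on a log scale, the 17 joined sites (black where every list has a peak, grey otherwise), the bases in 100-base words that occur more than once, and the positions of GGAC. The wide boxes of day 1 break into narrower ones in the later lists, and the repeated words lie between 3478 and 13394 bases from the start, where the longest stretches without a peak are found.

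Which places recurred was read from the 17 sites. Every list had a peak in 9 of them, 3 were in 3 lists, 1 was in 2 lists and 4 were in 1 list. The 9 sites of every list held 48 of the 66 peaks. Day 1 had peaks in 15 sites, 1 week in 14, 2 weeks in 13 and 8 weeks in 9, and the 8-week list had no site to itself. The 8-week list thus kept a part of the sites that the earlier lists had, with at most 2 peaks in any of them.

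Site 3 was the most constant place of the gene. The day 1, 1-week and 2-week lists gave it the same first and last base, chr19:9002804-9003314, and the 8-week peak of 241 bases lay inside that span. Its fold was 112 at day 1, 190 at 1 week, 400 at 2 weeks and 79 at 8 weeks, and its −log10 p was 450, 517, 264 and 41.3. It was the highest Ahnak fold of the 1-week, 2-week and 8-week lists, and 3 day 1 peaks, in sites 12, 13 and 17, were above it. No other Ahnak peak had the same borders in any pair of lists.

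Downstream of it, sites 4, 5 and 6 also had 1 peak in every list. Site 4, positions 1676 to 2305, had folds of 91.8, 33.8, 18.2 and 14.1 in the order of age. Site 5, positions 2365 to 3443, had 83, 145, 16.1 and 9.17. Site 6, positions 3623 to 4371, had 89.5, 59.1, 68.5 and 24. In all 3 the 8-week fold was the lowest, and in site 6 the 8-week peak was not the same place. That peak, chr19:9005321-9005470, shared 1 base with the day 1 peak and none with the peaks of 1 and 2 weeks, so site 6 is held together by a single base and has no stretch in all lists.

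Sites 8, 10, 13, 16 and 17 were the other places with a peak in every list, and most of them were wide at day 1 and broken up later. Site 13, positions 11561 to 13238, was 1 peak of 1648 bases with a fold of 262 at day 1, the widest and the highest of the Ahnak peaks of that list. The same span held 4 peaks at 1 week, with folds of 15.6, 4.07, 45.8 and 49.4, then 3 peaks at 2 weeks, with folds of 14.3, 73.8 and 11.1, and 1 peak of 150 bases with a fold of 16.9 at 8 weeks. The 8-week peak lay near the 5′ end of the day 1 peak, and not in the part that had the highest fold at 1 and 2 weeks.

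Site 10, positions 8266 to 9614, was 1 peak of 1349 bases with a fold of 107 at day 1 and 2 peaks in each later list. The 5′ member had folds of 98.5, 102 and 38.1 and the 3′ member 74.4, 53.6 and 35.3 at 1, 2 and 8 weeks. This site kept both of its peaks to 8 weeks, where their folds were the highest of the gene after that of site 3. Site 8, positions 6169 to 7337, had 1 peak at day 1 and at 1 week, 3 at 2 weeks and 2 at 8 weeks, with highest folds of 28.5, 47.5, 39.2 and 33.8. It was the one site of every list whose highest fold was not lower at 8 weeks than at day 1.

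Toward the 3′ end, site 16, positions 14376 to 15515, had 1 peak in every list, and its fold fell from 92.5 to 82.2, 49.8 and 14.1. Site 17, positions 15724 to 16563, had a fold of 216 at day 1, 2 peaks of 38.5 and 12.4 at 1 week, 31 at 2 weeks and 9.87 at 8 weeks. In site 17 the shared stretch lay in the second 1-week peak, the weaker of the pair by fold.

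The sites that had no peak at 8 weeks were 8 in number. Sites 7, 11 and 12 were in the first 3 lists. Site 7, positions 4431 to 5420, had a day 1 peak with a fold of 41.6 and 2 peaks in each of the next lists, with highest folds of 189 and 19.3. Site 11, positions 9703 to 10482, went the other way. Its 2 day 1 peaks, with folds of 4.38 and 26.6, both overlapped 1 peak of the 1-week list, whose fold was 31.3. Its 2-week peak had 9.37. Site 12, positions 10752 to 11141, had folds of 113, 27.6 and 12.9. Its day 1 fold was the third highest of the gene in that list, so a high early fold did not go with a peak at 8 weeks here. Site 14 was in the day 1 and 1-week lists with folds of 13.2 and 10.6.

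The 4 sites of a single list were low or moderate in fold. Site 2, at chr19:9002415-9002655, and site 9 were day 1 peaks with folds of 11.9 and 16.8, and site 15, at chr19:9015895-9016044, was a 1-week peak with a fold of 6.18. The 2-week peak of site 1 was stronger, with a fold of 43.9 and a p-value of 5e-14. It began at position 28, and no other list had a peak before position 717.

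**Figure D3:**
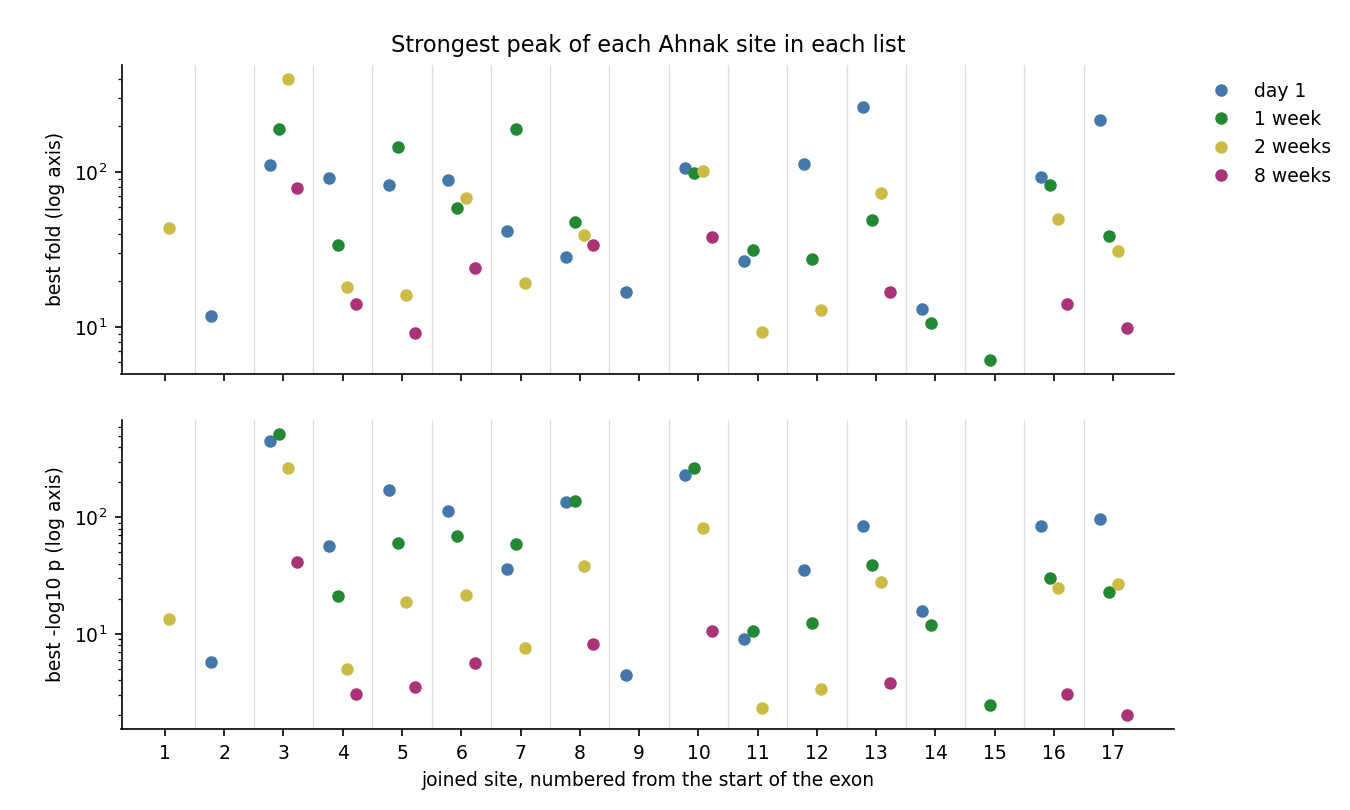
Points give, for each of the 17 joined sites in order along the exon, the highest fold and the largest −log10 p of the peaks of each list, both on log axes, with a colour per list. Site 3 has the largest −log10 p in all 4 lists (450, 517, 264 and 41.3), and sites 1, 2, 9 and 15 have a point in 1 list alone.

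Peaks of a later list lay mostly inside those of an earlier one. Of the 11 8-week peaks, 10 were wholly inside a day 1 peak, 8 inside a 1-week peak and 7 inside a 2-week peak. Of the 19 2-week peaks, 17 were wholly inside a day 1 peak, and of the 20 1-week peaks 13 were. In the other direction 4 day 1 peaks each overlapped 2 or more 1-week peaks, by at least 1 base. Another count gave 4 that overlapped 2 or more 2-week peaks and 2 that overlapped 2 or more 8-week peaks. By contrast 1 1-week peak, that of site 11, overlapped 2 of day 1. Early Ahnak peaks that met several later ones were thus more frequent in these lists than later ones that met several early ones. The same counts were not made over all peaks of the lists, so they describe Ahnak alone. Day 1 peaks were wide and held 68.6% of the exon, and the part of this in the counts was not tested.

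Counted in bases, day 1 peaks held 91.4% of the 1-week, 92.8% of the 2-week and 92.5% of the 8-week bases, while they held 68.6% of the exon as a whole. In return the 8-week peaks held 16.1% of the day 1 bases. Of the 16623 bases, 1477 (8.89%) were in a peak of every list, 4504 (27.1%) in 3 lists, 2849 (17.1%) in 2, 3708 (22.3%) in 1 and 4085 (24.6%) in none. The most frequent pattern was day 1, 1 week and 2 weeks without 8 weeks, with 4293 bases (25.8%), followed by day 1 alone with 2809 (16.9%). Bases of the 8-week list alone numbered 149, all but 1 of the 150 bases of its site 6 peak.

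Overlap by at least 1 base was also counted for all peaks of the lists, since wide and dense peaks meet more often. Day 1 peaks of Ahnak met a 1-week peak in 14 of 16 cases, or 87.5%, where 58.8% of all day 1 peaks did, and an 8-week peak in 9 of 16, or 56.2%, where 24.4% of all did. Of the 1-week Ahnak peaks 19 of 20 met a day 1 peak and 16 of 20 a 2-week peak, 95% and 80%, beside 72% and 62.8% of all. Of the 2-week peaks 17 of 19 met a 1-week peak and 10 of 19 an 8-week peak, 89.5% and 52.6%, beside 64.5% and 30.3%. All 11 8-week peaks met a day 1 peak (Wilson 95% interval 74.1% to 100%, counting error only), that of site 6 by 1 base alone. A 2-week peak was met by 10 of 11, or 90.9%. Of all 8-week peaks, 57.9% met a day 1 peak and 59.6% a 2-week peak. In each of these 8 counts Ahnak was above the background of its list. The tables used here hold fewer peaks than the study states for each age, so a peak counted as without a partner, or a site as without a peak, is so in these tables alone.

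That order did not hold when the 2 peaks had to share at least 50% of each other. Then 56.2% of the day 1 Ahnak peaks had a partner at 1 week, beside 45.3% of all, but 25% had one at 2 weeks and none of 16 at 8 weeks, beside 41% and 11.8% of all. None of the 11 8-week peaks had a partner at day 1 or at 1 week, beside 25% and 33.9% of all. At 2 weeks 27.3% of them had one, beside 34.2%. The values of none were fixed by width. The 8-week peaks had at most 241 bases and the day 1 peaks that they met at least 511, so 50% of a day 1 peak could not be shared. The 1-week peaks that they met were also too wide for this. These values therefore do not show whether the places recurred. The 1-week and 2-week lists matched best by this rule, with 70% of the 1-week and 73.7% of the 2-week peaks, beside 51% and 52.8% of all. Every 8-week Ahnak peak thus met a day 1 peak, that of site 6 by 1 base alone, but none was wide enough to match one in extent.

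The borders themselves came in steps. All 66 peak widths were within 2 bases of a multiple of 30, as were 94% of all peaks with a single block, and the 132 borders fell on 110 different positions. The smallest gaps were 59 bases at day 1 and 58 at 1 week, and 3 of 15 and 4 of 19 gaps in these lists were at most 60 bases, 2 such steps, against none at 2 and 8 weeks. In the map, the wide day 1 peaks of sites 3, 4 and 5 are set apart by gaps of this size.

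No Ahnak peak touched the stop codon, the 872 bases after it in the same exon, or exons 1 to 4. The last peak ended 150 bases before the stop codon at day 1, 60 at 1 week, 180 at 2 weeks and 210 at 8 weeks. Among all genes with a peak and an annotated stop codon, the share with a peak over the stop codon or the 3′ UTR was 68.5% at day 1, 64.1% at 1 week, 64.4% at 2 weeks and 59.9% at 8 weeks. Among genes with 5 or more peaks it was 75.4% of 134, 74.1% of 174, 73.4% of 128 and 58.5% of 41. Ahnak was among the other genes in all 4 lists.

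The consensus was moderately denser inside the Ahnak peaks. The coding exon holds 128 GGAC words, 7.7 per kb, of which 92 lay in day 1 peaks, 73 in 1-week, 67 in 2-week and 19 in 8-week peaks. The density inside peaks was 8.07, 8.74, 9.45 and 9.56 words per kb, and in the rest of the exon 6.89, 6.65, 6.4 and 7.45, a ratio of 1.17, 1.32, 1.48 and 1.28. As shares of all words these were 71.9% (Wilson 95% interval 63.5% to 78.9%), 57% (48.4% to 65.3%), 52.3% (43.7% to 60.8%) and 14.8% (9.71% to 22%). The share of bases in peaks lay below the interval at 2 weeks (42.7%) and inside it in the other 3 lists, and since many words are copies of each other, the intervals are too narrow. DRACH had 381 words, with ratios of 1.24, 1.3, 1.32 and 1.24.

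Peaks without GGAC were few, 1 of 16 at day 1, 1 of 20 at 1 week, 1 of 19 at 2 weeks and 2 of 11 at 8 weeks. All 66 peaks held at least 1 DRACH word. Most windows of the exon hold GGAC too, 79.5% of those of 181 bases, the median width at 8 weeks. Of the 271-base windows, the 2-week median, 89.8% do, and DRACH has 22.9 words per kb of the exon. These counts therefore do not set the peaks apart from the rest of the exon. The bases in every list were not the densest, with 7.45 GGAC words per kb, near the 7.72 of the rest of the exon. The bases in 3 lists had 10.7 per kb, those in 2 lists 7.37, those in 1 list 5.66 and those in no list 6.61, so the density did not rise evenly with the number of lists. The word CAGG, which has the same letters in another order, was less dense inside peaks in the first 3 lists and denser at 8 weeks, with ratios of 0.758, 0.763, 0.813 and 1.1, and in every list the share of bases in peaks lay inside the interval of its share of words. The GC content of the peaks differed little from that of the rest, at 46.7% and 49.1% at day 1 and 47.6% and 47.4% at 8 weeks.

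The repeated structure of the exon was visible in the sequence and went along with where peaks were missing. Shifted by 384 bases, or 128 codons, the exon matched itself at 46.7% of positions, the highest of all shifts, where the median shift gave 24.8%. Words of 100 bases that occur more than once covered 4252 bases, 25.6% of the exon, in 17 blocks. These bases were in peaks less often than the others in every list, 37.3% and 79.3% at day 1, 25.5% and 58.7% at 1 week, 18.4% and 51% at 2 weeks, and 5.97% and 14% at 8 weeks. Of the repeated bases 54.6% were in no list, against 14.3% of the others, and none of the 1477 bases in every list was in a repeated word of 100 bases. With words of 50 bases, tried after seeing the data, 6.91% of those 1477 bases were repeated, and the shared stretch of site 13 holds the 47-base run.

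The longest stretch without a peak, positions 5421 to 6168, had 748 bases, 93.4% of them in repeated words. It held 6 GGAC words, near the 7.7 per kb of the whole coding exon. The next, positions 7338 to 7935, had 598 bases and was 91.8% repeated, and the third, positions 11142 to 11560, was 63.7% repeated. The other 2 stretches of 300 bases or more held no repeated word, and one of them, positions 13808 to 14196, was also without GGAC. When the exon was cut into 6 equal parts, the third had the highest share of repeated bases, 67.5%, and the lowest share in peaks at day 1, 41.8%. The fourth came next in repeated bases, with 50.1%, but had the highest share in peaks at day 1, 82.8%. It also had the lowest share of bases in no list, 12.9%. Across the 6 parts the share in peaks thus did not simply follow the share of repeated bases. At 8 weeks it was the fifth part that was lowest, with 5.42% in peaks.

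The 47-base run printed above is the longest that site 9 and the shared stretch of site 13 have in common. That 1 copy was in every list and another at day 1 alone was therefore set by this choice. The run is given as an example only. Its copies at chr19:9005176-9005222, chr19:9012181-9012227 and chr19:9012943-9012989 were in no peak. The copy at chr19:9009673-9009719 lay in the day 1 peak of site 9, the copy at chr19:9010057-9010103 in the peaks of site 10 at day 1, 1 week and 2 weeks, and the copy at chr19:9013321-9013367 in the peaks of site 13 in all 4 lists. The same 47 letters, with both of their GGAC words, were therefore inside a peak in every list at one place and in none at 3 others.

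Single and repeated GGAC words were compared by the 20 bases around each. Of the 128 words, 72 stood in a sequence found once in the exon and 56 in 10 sequences with 2 or more copies. At day 1 84.7% of the single ones (Wilson 95% interval 74.7% to 91.2%) and 53.6% of the repeated ones (40.7% to 66%) lay in peaks. The shares were 68.1% and 41.1% at 1 week and 63.9% and 33.9% at 2 weeks. At 8 weeks they were 18.1% (10.9% to 28.5%) and 10.7% (5% to 21.5%), with intervals that overlap. Since the 56 repeated words stand in 10 sequences and are not independent, their intervals are too narrow and were not used as a test. The repeated sequences were not alike. Those with 14 copies each had 10 copies in day 1 peaks, and the one with 8 copies had 4. Those with 4 or 3 copies had 1 or none. Within unrepeated bases alone, the density of GGAC inside peaks over outside was 1.27, 1.36, 1.62 and 1.26, above 1 in every list as in the whole exon. The sources used here do not say how reads that match several copies were assigned, and the part of such reads in the missing peaks was not tested.

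**Figure D4:**
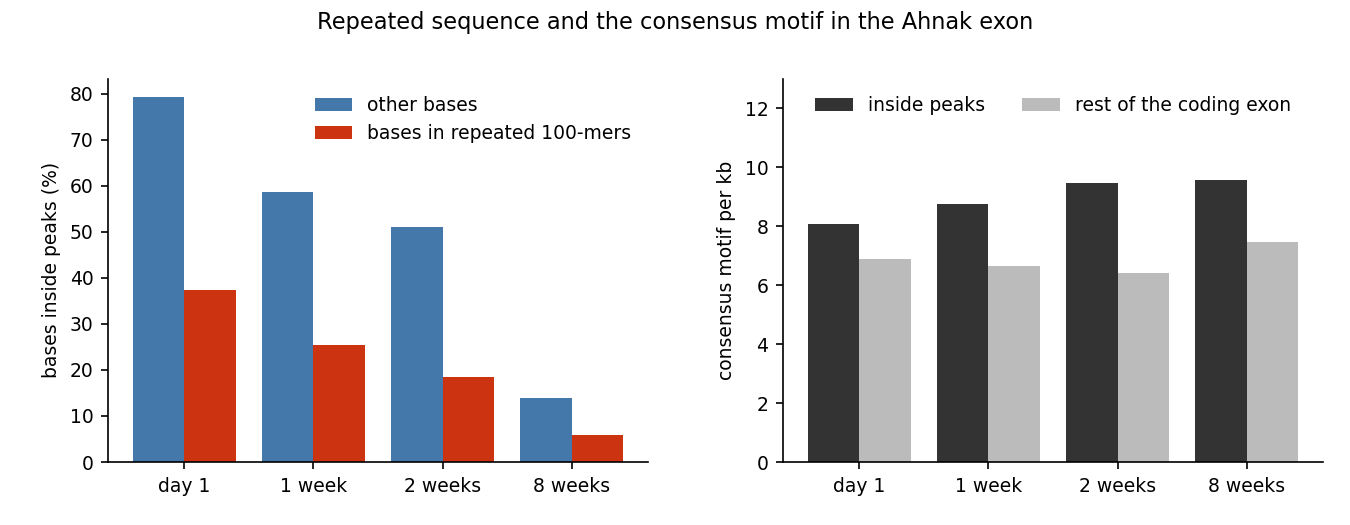
The left bars give the percent of bases inside peaks among bases in 100-base words that occur more than once in the exon and among the other bases, and the right bars give GGAC words per kb inside peaks and in the rest of the coding exon, for each of the 4 lists. Repeated bases were covered less in every list (37.3% against 79.3% at day 1), and GGAC was denser inside peaks in every list (8.07 against 6.89 per kb at day 1).

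Set against its length, the number of Ahnak peaks was high but not extreme. Per kb of the longest transcript Ahnak had 0.884 peaks at day 1, 1.1 at 1 week, 1.05 at 2 weeks and 0.608 at 8 weeks, above 91%, 95.7%, 94.7% and 84% of genes with a peak, whose medians were 0.385, 0.37, 0.375 and 0.321. Another 62 genes have a coding exon of at least 5000 bases, and 40, 36, 35 and 32 of them had a peak in it. By peaks per kb of that exon Ahnak, with 0.963, 1.2, 1.14 and 0.662, ranked 11 of 41, 10 of 37, 9 of 36 and 13 of 33. By the share of the exon in peaks it ranked 11, 14, 14 and 14, with medians of 27.9%, 30.4%, 32.9% and 9.25% in the other genes that had a peak there. Long coding exons were not alike in this. Ttn, with an exon of 17106 bases for the giant muscle protein titin, had 1 peak in it at day 1 and none later, a comparison chosen after its values were seen.

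**Figure D5:**
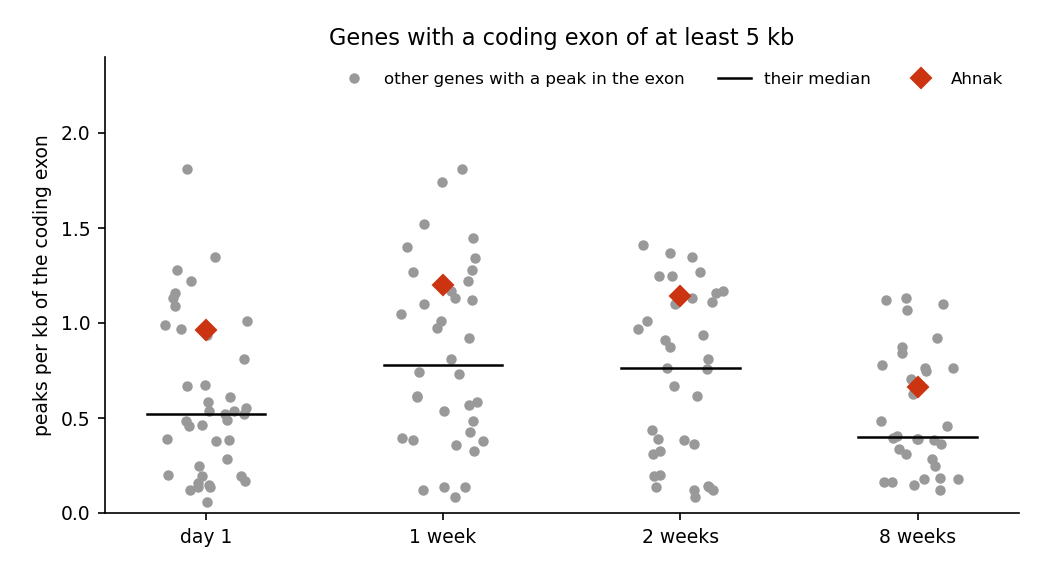
Points give peaks per kb of the longest coding exon for genes whose exon has at least 5000 bases and a peak in that list, with a line at the median of the other genes and a red diamond for Ahnak. Ahnak is above the median in all 4 lists (0.963 against 0.521 at day 1), with several genes above it in each, up to 1.81 at day 1.

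The protein-coding genes with the next most peaks were Zfhx3 with 50, Plec with 44, Fat4 and Zfhx4 with 37 each and Fat1 with 36. Zfhx3 and Zfhx4 encode zinc finger homeodomain transcription factors, Plec the cytoskeletal linker plectin, and Fat1 and Fat4 giant atypical cadherins. Ahnak had the most peaks of any gene at 1, 2 and 8 weeks, where the next gene had 16, 15 and 10. At day 1 it shared its 16 with Kcnq1ot1, a long non-coding antisense RNA. From day 1 to 8 weeks the count went from 16 to 11 for Ahnak, from 15 to 7 for Zfhx3, from 11 to 3 for Zfhx4, from 15 to 5 for Fat4, from 10 to 2 for Fat1 and from 9 to 10 for Plec. The fall was thus larger in 4 of these 5 genes than in Ahnak. The whole list went from 10161 to 4808 peaks over the same ages. With every list shortened to 4808 peaks by p-value, Ahnak had 12 peaks at day 1, 17 at 1 week, 13 at 2 weeks and 11 at 8 weeks. The fall in its count from day 1 to 8 weeks was then small.

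Among 29 other protein-coding genes with at least 4 peaks in every list, those whose shares of peaks over the 4 lists were nearest to the shares of Ahnak were Usf3, Maf, Zfp292, Apc and 2900026A02Rik. Usf3, with 7, 9, 8 and 4 peaks, was at a distance of 0.0311, Maf, with 7, 9, 9 and 4, at 0.0372, and Zfp292, with 7, 9, 10 and 5, at 0.0409. Apc, with 8, 8, 9 and 5, was at 0.0454 and 2900026A02Rik, with 6, 7, 8 and 5, at 0.0483. The distance is Euclidean over the 4 shares, and with 4 points per gene and 1 list per age it describes these lists only.

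Of 7 relatives and partners of Ahnak, 3 had a peak in some list, beside 35.9% of all annotated protein-coding genes, and none had one in every list, beside 9.02%. Of Ahnak2 and Prx, which encode relatives with a similar start, Ahnak2 had 1 CDS peak at day 1 (fold 15.4) and 1 at 1 week (fold 8), and Prx had none. Of the partners, S100a10, which forms the complex with annexin A2, had a single 3′ UTR peak (2 weeks, fold 6.64), and Actb, which encodes beta-actin, had 2 in the 3′ UTR in each of the 1-week and 2-week lists, the highest with folds of 1.45 and 5.27. Anxa2, Dysf, whose product dysferlin repairs the plasma membrane, and Cacnb2, a calcium channel beta subunit, had none in any list. A gene without a peak may also be too low in the liver for one to be found, which these lists do not show.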

How the data were processed

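m6A-RIP sequencing of WT mouse liver was used, with 1 input and 1 IP library at each of 5 ages. Per the study's methods, RNA came from 2 individuals per age, HISAT2 aligned the reads to mm10, exomePeak compared IP with input to find peaks, the longest isoform of a gene was kept, and HOMER was used for motifs. How the 2 individuals were combined, the handling of reads with several matches and the library depth are not given in the sources used here. The deposited tables give, per peak and pooled over the libraries of an age, the p-value, its logarithm and that of the FDR (base 10, by comparison with the p-value column), and the fold enrichment, a ratio that the authors computed on a linear scale. They were used as the authors' values, with no SD or n. They hold no counts, so no interval on a fold can be given, and intervals on shares (Wilson, 95%) cover counting error only. The 4-week table repeated the 2-week one and was left out.

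The members and gene lists were chosen with earlier results of these data known. Peaks named Ahnak were taken from 4 lists, turned to 1-based positions and joined into sites when they shared at least 1 base. Gene models were of the mouse GENCODE annotation and sequences of RefSeq GRCm38, which were checked against each other and were identical over the exon. GGAC, DRACH and CAGG were searched on the sense strand, and repeats were words of 100 bases that occur more than once in the exon. Copies elsewhere in the genome were not searched. Genes named were Ahnak, the 5 protein-coding genes with the next most peaks, and the 5 with at least 4 peaks per list whose shares over the lists were nearest by Euclidean distance. Alternatives were thresholds on FDR (0.05, and log10 of −3) and fold (5), lists shortened to 4808 peaks by p-value, whole peak spans, 50% reciprocal overlap, the middle of a peak, other motifs and gene models. Leaving out the 8-week list and other word lengths were added after seeing the data. Python 3.11.15, pandas 2.3.3, numpy 2.4.6, scipy 1.17.1 and matplotlib 3.10.9 were used, and the overlap rules were tested on simulated data, with 0 wrong of 2000 peaks per list.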

Additional observations from a re-analysis of the deposited data

How the results depend on the processing

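Of the values recomputed under other settings, 48 stayed within a factor of 1.5 or within their interval and 19 did not. With a log10 FDR of at most −3 the 8-week list had 7 Ahnak peaks in place of 11, sites in every list fell to 5 from 9, and shared bases to 934 from 1477. With 50% reciprocal overlap there were 40 sites, 1 of them in every list and 23 in a single list. Under that rule 56.2%, 25% and 0% of day 1 peaks had a partner at 1, 2 and 8 weeks. Of the 1-week peaks 45% and 0% had one at day 1 and 8 weeks. Of the 2-week peaks 21.1% and 15.8% had one at day 1 and 8 weeks. Of the 8-week peaks 0%, 0% and 27.3% had one at day 1, 1 week and 2 weeks. The values of 0% were fixed by the widths of the peaks. With CAGG in place of GGAC, 62.3%, 43.5% and 37.7% of words lay in peaks at day 1, 1 week and 2 weeks. Without the 8-week list, a choice made after seeing the data, 12 sites were in every list. With words of 50 or 150 bases, also chosen later, 59.9% and 45.4% of the bases in no list were repeated, beside 56.8% with 100, and 6.91% and 0% of the bases in every list, beside 0%. No paired analysis was possible because there is 1 list per age and no result comes from a test. Library depth is unknown, so what depth limits could not be measured. All values rest on 1 list per age, and the 4-week age was not analysed.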
